A study of Mus musculus with 4 samples.

Results

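The messenger RNAs of splicing factors were followed in mouse fibroblasts after a short pulse of hydrogen peroxide. All non-control probes whose gene name on the array began with Srsf, Sfrs or Hnrnp, or was Clk1 to Clk4, Tra2a or Tra2b, were taken, whatever their values. They were 67 probes of 36 genes, out of 39429 probes and 30175 gene names on the array. Grouped by gene name, the SR group (Srsf or Sfrs) had 26 probes of 12 genes and the hnRNPs 34 probes of 18 genes. The CLK kinases had 5 probes of 4 genes and the TRA2 proteins 2 probes of 2 genes. Sfrs18, which RefSeq now names Pnisr, was counted in the SR group for its name alone.

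SR proteins bind exon sequences in precursor messenger RNA through RNA recognition motifs and recruit the spliceosome through a domain rich in arginine and serine. The hnRNPs coat precursor RNA as it is made, and many of them oppose SR proteins at exons, so that the balance of both helps to set which exons are kept. CLK kinases are dual-specificity kinases of the nucleus that phosphorylate SR proteins, and the TRA2 proteins are SR-like activators that bind purine-rich exon enhancers. The genes of many SR proteins also make alternative transcripts, with an extra exon or a retained intron, and one gene can therefore be read differently by probes that lie in different places.

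The cells were NIH-3T3:Per2-Luc fibroblasts, an embryonic mouse fibroblast line that carries luciferase under the promoter of the clock gene Per2. The control was given 0 mM H2O2 and labelled 4 h, and the other cells were given 5 mM H2O2 for 10 min (the cOS-pulse, for critical oxidative stress) and collected 4 h, 20 h or 32 h later. Total RNA of each was labelled with Cy3 and read on a one-colour Agilent array. Each of the 4 conditions had 1 array, so the differences had no replicate check and no test was possible. All 3 treated arrays were set against the same control array. It was labelled 4 h, and the later times had no control of their own. In the ratios at 20 h and 32 h the pulse and the time of collection therefore cannot be told apart. The 20 h and 32 h arrays were also set against each other, the pair of times in which a rhythm about a day long would be read at different phases.

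A value is given as the log2 of a probe's signal over the 75th percentile of all probes on its array, and a ratio is the difference of 2 such values. The error after ± is the one the scanner software assigned to the spots, carried into the ratio. It was 0.20 for the median member probe in the ratio of 4 h over control and ranged from 0.20 to 0.32, and it holds nothing of the spread between cultures. Of the 67 probes, 65 were well above background on all 4 arrays. Both exceptions were probes of Srsf12, the gene of a small SR-related protein. Its probe at position 2613 was well above background on no array. Its probe at position 256 was well above background at 32 h alone, at a scaled log2 signal of -3.49, so its ratio has only a lower limit, 2.40-fold over the control and 3.06-fold over 20 h. Limits of 2-fold or more in either direction were found for 1.29% of all probes in the first of these comparisons and for 1.23% in the second.

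Between 52.7% and 59.1% of all probes were well above background on an array, with the highest share on the 4 h array and 53.4% on the control array. The 75th percentile of the signals on the 4 h array lay 0.28 (log2) below that of the control array, while its median lay 0.080 above it. Without scaling, the median ratio at 4 h was -0.11 in place of 0.17 for all measured probes and 0.18 in place of 0.46 for the member probes. The source of the offset was not tested. Of 12 fibroblast marker genes 10, Col1a1, Col1a2, Vim, Fn1 and Sparc among them, had a probe well above background on all arrays, and Fap and Postn on none. Markers of macrophages and leukocytes were well above background on all arrays for 4 of 7 genes, with the common leukocyte antigen gene Ptprc on none, those of epithelium for 2 of 6, those of endothelium for 2 of 5 and those of skeletal muscle for 0 of 5.

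The probes of SR genes matter most for what follows, because probes of one gene gave different ratios at 4 h. The first 30 of the 60 bases of these probes are shown here with the coordinates of the whole probe (mm9), and the probes of Clk4 follow because they gave nearly the same ratio. The position is that of the probe on its listed transcript. Positions of Srsf10 refer to 2 transcripts, one for the probe at 910 and another for the probes at 1783 and 2896.
Srsf1 position 2552, chr11:87864550-87864609, plus strand: ataggatagggaggatgaattaccaggatt
Srsf1 position 5019, chr11:87867017-87867076, plus strand: ccagagtagatgcctttattgtgtaatttg
Srsf1 position 5101, chr11:87867099-87867158, plus strand: gtgataagatcttcatgtaaagtctgaaca
Srsf3 position 274, chr17:29173333-29173392, plus strand: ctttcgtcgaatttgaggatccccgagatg
Srsf3 position 752, chr17:29178485-29178544, plus strand: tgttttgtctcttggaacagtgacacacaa
Srsf3 position 2460, chr17:29180193-29180252, plus strand: ccagatgagatttaggtatcaatctattcc
Srsf7 position 907, chr17:80600741-80600800, minus strand: ggatcatcaaccatctaatcaaaatggatc
Srsf7 position 1343, chr17:80600305-80600364, minus strand: ggaattgtcaagcttagagggaccactgat
Srsf10 position 910, chr4:135419928-135419987, plus strand: ccagtggccactgatagtataaattatgat
Srsf10 position 1783, chr4:135424198-135424257, plus strand: gaaagtgtttaccggatacgactttttagt
Srsf10 position 2896, chr4:135425311-135425370, plus strand: tactaaaagtagatttaaagtgtattccag
Clk4 position 1416, chr11:51094791-51094850, plus strand: tgtcatgacgaagagcatgagaagctgttt
Clk4 position 1554, chr11:51094929-51094988, plus strand: aggggtcttctgtgtacttctctaggagca

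At 4 h most splicing factor probes were higher than the control. Of the 65 measured probes 53 lay above 0, or 81.5%, against 60.2% of all 20392 measured probes. Their median ratio was 0.46 with an interquartile range of 0.68, beside 0.17 and 0.84 for all probes. The difference of the medians was 0.29. A constant per array cannot change it, so of the 6 other scalings tried only quantile normalization could, and it gave 0.33. Over the other ways of processing it lay between 0.23, with another background correction (normexp), and 0.36, without a detection filter. The median of all probes itself moved by up to 0.40 downwards under the scalings. The number of member probes above 0 therefore depended on the scaling and ranged from 36 to 53. Only 6 of 65 probes, or 9.23%, were at least 2-fold higher, beside 8.63% of all measured probes, so that large increases were about as frequent as elsewhere on the array. None was at least 2-fold lower, beside 7.91% of all probes. Under the 6 other scalings 0 to 2 member probes were at least 2-fold higher and 0 to 2 at least 2-fold lower. In RNA of a whole culture, fewer cells that hold a transcript and less of it per cell cannot be told apart. At 1.5-fold the counts were 25 higher and 3 lower, beside 21.6% and 16.5% of all probes.

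Among the kinases, Clk4 had the highest ratios at 4 h, on both of its probes. The probe at position 1416 gave scaled log2 signals of 0.52 in the control, 1.54 at 4 h, 0.63 at 20 h and 0.53 at 32 h, a ratio of 1.02 ± 0.20 at 4 h. The probe at position 1554 gave 1.16, 2.17, 1.37 and 1.24, a ratio of 1.01 ± 0.20. Both ratios were just past 2-fold and fell below it under all 6 other scalings, to between 0.61 and 0.99, and also with normexp and with the signal trend removed. Both probes were highest at 4 h and lay at most 0.21 above the control at the later times. Clk1, a close relative of Clk4, has 1 probe, at position 1254, which spans 2 exons, from base 58469863 to base 58470285 of chromosome 1 (mm9). It read 2.48 in the control, 2.98 at 4 h, 2.44 at 20 h and 2.40 at 32 h, a ratio of 0.50 ± 0.20 at 4 h. Clk2 read 2.30, 1.94, 2.24 and 2.25, so that it was lower than the control at 4 h, at -0.37 ± 0.20, under every scaling tried. Clk3 read -0.11, 0.09, -0.15 and -0.10, a ratio of 0.20 ± 0.20 at 4 h that turned negative under 4 of the 6 other scalings. The 4 kinase genes thus differed from one another at 4 h, with Clk4 and Clk1 above the median of all probes, Clk3 close to it and Clk2 below it.

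Both TRA2 genes were higher at 4 h under every scaling tried. Tra2a read 4.41 in the control, 5.26 at 4 h, 4.41 at 20 h and 4.30 at 32 h, a ratio of 0.86 ± 0.20 at 4 h. Tra2b read -2.16, -1.33, -2.26 and -2.43, a ratio of 0.84 ± 0.22. Neither reached 2-fold, and at 32 h both were below the control, at -0.10 for Tra2a and -0.27 for Tra2b, of which the first turned its sign under other scalings.

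The SR genes Srsf1, Srsf3, Srsf7 and Srsf10 gave opposite or strongly unequal ratios on different probes at 4 h, and in each of them the probe nearest the 3′ end was the lowest. Srsf1 makes the founding SR protein, once called ASF/SF2. Its probe at position 2552 read 2.49 in the control, 3.18 at 4 h, 2.25 at 20 h and 2.01 at 32 h. Its probe at 5019 read 0.33, -0.16, 0.05 and -0.15, and its probe at 5101 read 1.10, 0.51, 0.87 and 0.66. The ratios at 4 h were 0.69 ± 0.20, -0.49 ± 0.20 and -0.59 ± 0.20, so that the first probe was highest at 4 h while the last was lowest then. At 32 h the same probes gave -0.48, -0.48 and -0.44, with no such split.

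Srsf3 makes the smallest SR protein. Its probe at position 274 read 3.30 in the control, 3.76 at 4 h, 2.91 at 20 h and 2.73 at 32 h, and its probe at 752 read 3.50, 3.91, 3.09 and 3.04. Its probe at 2460 read -0.39, -1.10, -1.04 and -1.05. The ratios at 4 h were 0.46 ± 0.20, 0.41 ± 0.20 and -0.71 ± 0.20. The last probe was therefore lower than the control at all 3 times, while the first and the second were higher at 4 h and lower afterwards.

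Srsf10 makes an SR protein that acts as a general splicing repressor when it loses its phosphates, as in heat-shocked cells. Its probe at 910 read -2.88 in the control, -1.96 at 4 h, -3.13 at 20 h and -3.19 at 32 h. Its probe at 1783 read 0.19, 1.22, 0.20 and 0.16, and its probe at 2896 read -2.03, -2.50, -2.11 and -2.36. The ratios at 4 h were 0.92 ± 0.23, 1.03 ± 0.20 and -0.47 ± 0.22, the widest split of any member gene. The probes at 1783 and 2896 lie on one transcript and are 1113 bases apart.

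Srsf7 makes an SR protein with a zinc knuckle. Its probe at 907 read 4.11 in the control, 5.14 at 4 h, 3.49 at 20 h and 3.46 at 32 h, and its probe at 1343 read -0.54, -0.60, -1.17 and -1.58. The ratios at 4 h were 1.03 ± 0.20 and -0.06 ± 0.20, although the probes start only 436 bases apart. The first of these, like the Srsf10 probe at 1783, was just past 2-fold, and both fell below it under other scalings, to 0.63 at the lowest. At 20 h both probes were lower than the control, at -0.62 and -0.63. At 32 h they gave -0.65 and -1.04.

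The probes of each other SR gene differed by less than 2-fold at 4 h. Srsf6, formerly SRp55, read 2.54 in the control, 3.47 at 4 h, 2.60 at 20 h and 2.32 at 32 h at position 1235, and 1.23, 1.40, 0.65 and 0.80 at position 3179. It gave 0.93 ± 0.20 at position 1235 and 0.17 ± 0.20 at position 3179, the second of which turned negative under 4 of the 6 other scalings. Srsf11 gave 0.43 to 0.98 on 3 probes, and Srsf2, formerly SC35, 0.51 to 0.64 on 3 probes. Srsf5 gave 0.85 on its 1 probe, Srsf4 0.38 and Srsf9 0.06, and the sign of Srsf9 turned under all 6 other scalings and that of Srsf4 under the spike-in scalings. Sfrs18, which RefSeq now names Pnisr, gave 0.40 on a probe of one transcript, which turned slightly negative under the spike-in scalings, and -0.11 on a probe of another. The median of the 24 measured SR probes was 0.44, with quartiles of 0.03 and 0.73. Above 0 were 18 of 24 (75%, beside 60.2% of all probes). Under every scaling 14 were higher and 6 lower, beside 33.2% and 39.8% of all probes.

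The hnRNP probes had a median close to that of the SR probes at 4 h. It was 0.41, with 29 of 34 above 0 (85.3%, beside 60.2% of all probes), and 2 of 34 were at least 2-fold higher (5.88%, beside 8.63%). Hnrnpa2b1, whose protein binds exonic silencers and also sorts RNA into transport granules, read 3.42 in the control, 4.58 at 4 h, 2.98 at 20 h and 3.15 at 32 h at position 1223. That is a ratio of 1.16 ± 0.20 at 4 h, which was under 2-fold with scaling by the median (0.80), with the spike-in scalings (0.76), with quantile normalization (0.88), without scaling (0.88) and with the signal trend removed (0.89), and its probe at 1587 gave 0.85. Hnrnpa3, a relative of Hnrnpa1 and Hnrnpa2b1, had 7 probes. Its probe at 5126 read 1.24, 2.44, 0.83 and 1.04, a ratio of 1.19 ± 0.20 at 4 h, while the other 6 probes lay between 0.08 and 0.37. In order of position these gave 0.36 at 644 and 0.34 at 858, both probes that span 2 exons, then 0.37 at 1438, 0.14 at 1732, 0.08 at 1796 and 0.34 at 2451. The split in Hnrnpa3 thus ran the other way from that in the SR genes. All 6 of the lower Hnrnpa3 probes turned negative under at least 3 of the other scalings, and the probe at 5126 under none, although it fell below 2-fold with scaling by the median (0.83), with the spike-in scalings (0.80) and without scaling (0.91). Probes of Hnrnpa3 and Hnrnpa1 include 5 whose listed transcripts belong to more than 1 gene (Gm6793 for the first, Gm5643 and Gm10052 for the second), so these could read those copies too.

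Below 2-fold, the highest hnRNP ratios at 4 h were those of Hnrnpd at 0.98, Hnrnpc at 0.76 and 0.95, Hnrnpk at 0.84 to 0.95 on 3 probes, Hnrnpab at 0.84 on the first of its probes and 0.26 on the second, and Hnrnph2 at 0.82. Hnrnpd makes AUF1, which binds AU-rich elements in messenger RNA, Hnrnpc a protein that binds uridine tracts, and Hnrnpk one that binds cytidine-rich RNA through KH domains. Hnrnpf gave 0.56 and 0.71, Hnrnph1 0.51, Hnrnpa1 0.40 and 0.53, Hnrnpa0 0.33 and 0.51, Hnrnpm 0.42, Hnrnpl 0.38, Hnrnpu 0.34 and Hnrnpr 0.17. Of these, Hnrnpl, Hnrnpu, Hnrnpr and single probes of Hnrnpa0, Hnrnpa1 and Hnrnpab turned their sign under at least 1 other scaling. Only 3 hnRNP genes lay below 0 on every probe. They were Hnrnph3, at -0.03 and -0.71, Hnrnpul1, at -0.05 and -0.37, and Hnrnpul2, at -0.41.

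Differences of this kind between probes of a gene were also counted over the whole array. Of the 19 member genes with 2 or more measured probes, 5 (Srsf1, Srsf3, Srsf7, Srsf10 and Hnrnpa3) had ratios at 4 h that differed at least 2-fold, beside 12% of 3688 genes in general. At 20 h no member gene did, beside 2.16% of genes, and at 32 h 1 did, Hnrnpul1, beside 2%. Between 20 h and 32 h none did, beside 1.05%. The median range between probes of a member gene was 0.50 at 4 h, 0.18 at 20 h and 0.17 at 32 h. A range can only widen as probes are added, and these shares were not matched for the number of probes. Srsf1, Srsf3 and Srsf10 had 3 measured probes, Hnrnpa3 7 and Srsf7 2. A difference between probes of one array is not moved by a constant scaling. Quantile normalization, which is not constant, left Srsf7 with a range of 0.73 and Srsf3 with 0.94, both under 2-fold, and removal of the trend of the ratio with signal left them with 0.78 and 0.94. The ranges of Srsf1, Srsf10 and Hnrnpa3 stayed at least 2-fold under all 15 ways of processing tried, the main one included. Of these, only quantile normalization, normexp and removal of the signal trend could change a range. In that order they gave 1.08, 1.24 and 1.12 for Srsf1 and 1.66, 1.20 and 1.58 for Srsf10. For Hnrnpa3 they gave 1.36, 1.04 and 1.36.

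The order along the transcript was looked at after these values had been seen. For pairs of the first and last measured probe on one listed transcript, the ratio of the last minus that of the first had a median of -0.24 over 14 member pairs at 4 h, and 11 of 14 were below 0. Over 2790 pairs of all genes the median was -0.041 and 57.5% were below 0. In 4 of the 14 member pairs the last probe was at least 2-fold lower than the first, beside 4.8% of all pairs. These were the pairs of Srsf1, Srsf3, Srsf7 and Srsf10, whose splits had already been seen, so they add nothing separate. Among pairs at least 1000 bases apart the medians were -0.67 for 8 member pairs and -0.19 for all 1274 pairs, with 3 of 8 member pairs at least 2-fold lower, beside 8.16% of all. Lower ratios towards the 3′ end at 4 h were thus seen over the array as a whole in pairs far apart. The larger median of the few member pairs included Srsf1, Srsf3 and Srsf10. The other member pairs far apart gave -0.76 (Srsf6), -0.59 (Hnrnpab), -0.18 (Hnrnpa0), 0.18 (Hnrnpc) and 0.82 (Hnrnpa3). At 20 h the medians of the pairs far apart were -0.072 and -0.055, and at 32 h they were -0.014 and 0.014. Which transcript forms the probes picked up, and the length of the labelled RNA on each array, were not tested.

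At 20 h and 32 h most splicing factor probes had gone from above the control to slightly below it. At 20 h the median was -0.13 and 21 of 65 probes were above 0, beside -0.0034 and 49.5% for all probes. The number above 0 was 18 to 51 over the scalings, and 27 of the 65 ratios were larger than their own spot error. That error was 0.20 for the median member probe. The same count was not made over all probes, whose quartiles at 20 h were -0.20 and 0.17. None of the 65 was at least 2-fold higher or lower, beside 0.704% and 2.05% of all probes. At 1.5-fold none was higher and 6 were lower, 5 of them SR probes, beside 3.44% and 5.64% of all probes. At 32 h the median was -0.20 and 9 of 65 probes were above 0, beside -0.0062 and 49.1%. The number above 0 was then 8 to 27 over the scalings, and 32 of the 65 ratios were larger than their own spot error. Again this was not counted over all probes, whose quartiles at 32 h were -0.20 and 0.18. The distance of the member median from that of all probes was -0.13 at 20 h and -0.19 at 32 h. Quantile normalization, the only scaling that could change it, gave -0.10 and -0.22. The sign of the member median at 20 h itself turned to positive under spike-in scaling and without scaling, at 0.063 and 0.20, since these moved all probes upwards.

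The SR probes had the lowest median of the families at the late times. The SR median was -0.32 at 32 h, with 21 of 24 probes below 0, and that of the hnRNPs was -0.20, with 31 of 34 below 0. Of all probes 49.1% were above 0 at 32 h. Under every scaling 15 SR and 22 hnRNP probes were lower, beside 27.3% of all probes. The CLK median was 0.01. At 1.5-fold 5 of the 65 measured member probes were lower and none was higher, beside 5.24% and 4.06% of all probes. The probe of Srsf7 at 1343 was 2-fold lower than the control at 32 h, at -1.04 ± 0.20, and so was the probe of Hnrnpul1 at position 1082, which read -2.92 in the control, -2.97 at 4 h, -3.59 at 20 h and -4.05 at 32 h. With the limit of the Srsf12 probe counted too, 3 member probes were past 2-fold at 32 h. The 2 of 65 stand beside 1.5% of all probes at least 2-fold lower and 1.05% at least 2-fold higher. The other Hnrnpul1 probe, listed for a different transcript, gave 0.01 at 32 h. With another background correction (normexp), no member probe reached 2-fold at 32 h. Srsf2 was next, with 1.54 in the control, 2.05 at 4 h, 0.93 at 20 h and 0.61 at 32 h on its probe at position 1060. That probe gave 0.51 at 4 h and -0.93 at 32 h, so that it was among the probes that were above the control early and below it late.

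Several SR genes kept the same side of the control at late times under every scaling. All 3 probes of Srsf1 were lower at 32 h, between -0.48 and -0.44. All 3 probes of Srsf3 were lower at 20 h, between -0.66 and -0.39, and at 32 h, between -0.66 and -0.46. Both probes of Srsf7 and of Hnrnpa2b1 were lower at both times. Among the hnRNPs at 32 h, Hnrnpa0 gave -0.48 and -0.39, Hnrnpab -0.41 and -0.39, and Hnrnpc -0.39 and -0.22, and each of these genes had been above the control at 4 h. The 3 hnRNP probes above 0 at 32 h were those of Hnrnph2 at 0.03, Hnrnpul2 at 0.04 and Hnrnpul1 at position 2812, at 0.01. Over the 65 probes, 38 were lower and 8 higher at 32 h under every scaling, beside 27.3% and 47.5% of all measured probes. At 20 h 14 were lower and 18 higher, beside 14.1% and 47.4%. At 4 h 36 were higher and 12 lower, beside 33.2% and 39.8%.

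None of the 65 probes measured on both arrays differed by 2-fold between 20 h and 32 h, and the Srsf12 probe at position 256, with its lower limit above, was the exception among the rest. The median of 20 h over 32 h was 0.093, with 53 of 65 probes above 0, beside 0.0083 and 52.5% for all probes. This count of 0 stands beside 0.193% of all probes at least 2-fold higher and 0.449% lower, and the number of member probes above 0 was 52 to 62 over the scalings. The highest ratios were 0.45 for the Hnrnpul1 probe at 1082 and 0.40 for the Srsf7 probe at 1343, with the lowest -0.21 for the Hnrnpa3 probe at 5126. Of the 65 ratios, 13 were larger than their own spot error. This was not counted over all probes, whose quartiles in this comparison were -0.092 and 0.099.

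Other genes of splicing are given for comparison, from lists of genes with known roles. A gene named from a list is given by a single probe, picked as among the highest or lowest of that list at 4 h. Other probes of that gene, where it has any, are not shown. Among kinases and phosphatases that act on SR proteins, the median of 32 measured probes at 4 h was 0.21, with 5 at least 2-fold higher (15.6%) and 0 lower, beside a median of 0.17, 8.63% higher and 7.91% lower for all probes. The highest were Dyrk2 at 1.52 and Dyrk1a at 1.45, both DYRK kinases, and the lowest Ppp2ca, a catalytic subunit of protein phosphatase 2A, at -0.81, and Cdk12, a kinase of RNA polymerase II, at -0.77. Other regulators of alternative splicing had a median of 0.36 over 98 probes, with 19 at least 2-fold higher (19.4%) and 3 lower (3.06%). Single probes of the cold-inducible RNA-binding proteins went apart in this list, with Rbm3 at 2.33 and Cirbp at -1.72. A probe of Tardbp, the gene of TDP-43, at position 1112 was at 2.16. A probe of Syncrip, a relative of Hnrnpr, at position 2682 was at -1.22.

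The core of the spliceosome had a median of 0.24 over 112 probes at 4 h, with 8 at least 2-fold higher (7.14%) and 2 lower (1.79%), again beside 8.63% and 7.91% of all probes. Zrsr2, a factor of the minor spliceosome, was highest at 1.33, followed by the helicase gene Dhx15 at 1.22, and Isy1 at -1.35 and the cyclophilin gene Ppih at -1.12 were lowest. The exon junction complex and nonsense-mediated decay had a median of 0.33 over 20 probes, with 1 at least 2-fold higher (5%), the translation release factor gene Etf1 at 1.69, and with Dhx34 at -0.99 and Nbas at -0.70 lowest. At 32 h the medians of the 4 lists, in the same order, were 0.055, -0.10, -0.14 and -0.050. With the main scaling, the other regulators, the spliceosome core and the exon junction and decay list had medians below 0 at that time. The SR and hnRNP medians lay further below the control, and the kinases and phosphatases had one above 0. Spike-in scaling and no scaling moved all probes at 32 h up by 0.15 and 0.18. Each shift is larger than the distance of these list medians below 0, so their sign depended on the scaling.

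Promoters were available for 33 of the 36 genes, from RefSeq (GRCm38.p6), 250 bases before to 50 bases after the start. The cyclic AMP response element TGACGTCA, which reads the same on both strands, was found in those of Clk4 and Tra2a, or 6.06% of the 33 genes, beside 2.03% of all genes in the table. These promoters are shown, as the ones that hold the full element, with the element in capitals, 65 bases before the start in Clk4 and 27 bases before it in Tra2a.
Clk4 promoter, chr11:51262864-51263163, plus strand: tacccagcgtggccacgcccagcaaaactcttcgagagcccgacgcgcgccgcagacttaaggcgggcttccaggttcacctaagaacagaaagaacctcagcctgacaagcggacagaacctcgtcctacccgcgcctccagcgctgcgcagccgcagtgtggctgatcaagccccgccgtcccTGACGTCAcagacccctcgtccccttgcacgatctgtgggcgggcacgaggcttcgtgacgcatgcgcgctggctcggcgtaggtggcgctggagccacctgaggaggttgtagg
Tra2a promoter, chr6:49264003-49264302, minus strand: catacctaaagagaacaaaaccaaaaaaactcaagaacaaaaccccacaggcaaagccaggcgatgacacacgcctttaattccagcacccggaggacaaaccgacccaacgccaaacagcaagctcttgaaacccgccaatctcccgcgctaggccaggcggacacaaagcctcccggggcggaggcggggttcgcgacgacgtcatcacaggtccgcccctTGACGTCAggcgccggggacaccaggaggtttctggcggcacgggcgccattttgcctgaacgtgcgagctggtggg

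The other motifs were searched on both strands. The letters GAANNTTC form an inverted pair of GAA units, a part of the heat shock element and not a full one. They were found in 15.2% of the member genes (Hnrnpa2b1, Hnrnpf, Hnrnpl, Srsf9 and Tra2b) and in 9.04% of all genes. An antioxidant response element core, TGACNNNGC, which begins with the same letters as the first motif, was found in 30.3% (10 genes, Srsf2, Srsf3, Srsf4, Srsf6 and Hnrnpa3 among them) and in 14.0% of all genes. An ETS motif, CCGGAAGT, was found in 15.2% (Hnrnpd, Hnrnpf, Srsf11, Srsf4 and Srsf5) and in 4.31%. These matches describe letters in the window and were not set against the ratios.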

How the data were processed

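RNA of 1 culture per condition was read on 4 Agilent one-colour arrays. The deposited intensities were the processed signals of Feature Extraction 10.7.3.1, which the authors used to subtract background and spatial trend. The deposited table of scaled signals differed from them by 1 factor for each array. From the scanner files, unflagged spots of a probe were averaged, log2 was taken and the 75th percentile of 39429 probes was subtracted on each array. Detection required the well-above-background flag on 50% or more of a probe's spots, and ratios were taken between arrays that both detected the probe. Otherwise a bound was set from the lowest well-above-background signal of the array. Thresholds were 2-fold, with 1.5-fold and 3-fold as alternatives. With 1 array per condition no p-value was computed, and SAM, named in the study's methods, could not be run. Probes were placed in mm9 by the files. Each of the 60 member probes with RefSeq accessions had at least 1 that matched the RefSeq table, though some accessions did not match. Named were all probes of Clk1 to Clk4, Tra2a and Tra2b, all probes past 2-fold, all probes of genes whose probes differed 2-fold at 4 h, and the 2 highest and 2 lowest probes of each pathway list, of which 1 is not reported here; others are given by range. The genes, lists and alternatives were chosen with earlier results of these data known. The calculation, tested on simulated data, was run in Python 3.11.15 with pandas 2.3.3 and statsmodels 0.14.6 and, for normexp, limma 3.58.1 in R 4.3.3. Precision is limited by the number of arrays.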

Additional observations from a re-analysis of the deposited data

How the results depend on the processing

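The counts and medians were recomputed under 17 alternatives, and 133 values kept their place while 36 moved, none of them from a test. For the 8 single ratios past 2-fold at 4 h or 32 h, 54 values under the alternatives fell below the threshold and 74 stayed past it, none with a change of sign. Many values in both tallies could not have moved, so neither tally is a measure of robustness. A changed threshold cannot move a median, and a constant scaling cannot move a difference between probes. No member spot was flagged, and the 65 measured probes were well above background on all 4 arrays. The 6 probes at least 2-fold higher at 4 h became 0 with scaling by the median, by the spike-in probes, by the spike-in probes without 1 of them and without scaling, 2 with quantile normalization, with the 75th percentile of detected probes, with normexp, with 1 value per gene and with the signal trend removed, 25 at 1.5-fold and 0 at 3-fold. The 0 probes at least 2-fold lower became 2 with scaling by the median and with both spike-in scalings, 1 with quantile normalization and 3 at 1.5-fold. The median at 4 h, 0.46, became 0.10 with scaling by the median, 0.32 with quantile normalization, 0.063 and 0.066 with the spike-in scalings and 0.18 without scaling. The median at 20 h, -0.13, turned to 0.063 with spike-in scaling and 0.20 without scaling, that at 32 h, -0.20, became -0.050 and -0.023 under the same settings, and that of 20 h over 32 h, 0.093, became 0.25 without scaling. Probes past 2-fold were 6 at 1.5-fold in place of 0 at 20 h. At 32 h the 2 probes became 0 with spike-in scaling, without scaling, with normexp, at 3-fold and with 1 value per gene, and 5 at 1.5-fold. The 5 genes whose probes differed became 8 at 1.5-fold, 0 at 3-fold and 3 with the signal trend removed. The scalings other than quantile normalization move all probes of an array by a constant. They cannot change the distance of the member median from that of all probes, which kept its sign under quantile normalization. Without a detection filter that distance was 0.036 at 20 h. Leaving out an array was not possible, with 1 array per condition. No paired analysis was possible because each condition had 1 array and the labels gave no replicate numbers.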
